A study of Mus musculus with 2 samples.

Results

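The genes described here are 10 markers of macrophages, namely Csf1r, Mrc1, Adgre1, C1qa, C1qb, C1qc, Cd68, Lyz2, Tyrobp and Fcer1g, measured by RNA sequencing in cells from the superficial zone of mouse articular cartilage. They were taken by symbol from a table that names 15719 genes, and all 10 were found. The superficial zone is the thin layer of flattened chondrocytes at the joint surface. The study compared 1 library from wild-type (WT) C57BL/6 mice with 1 library from C57BL/6 mice of genotype Prg4KO, which lack lubricin, the lubricating proteoglycan encoded by Prg4. Both came from mice at postnatal day 5. Per the labels' protocols, ligaments, tendons and synovium were removed from the femur and the upper end of the tibia, and the cartilage was digested with 0.25% trypsin for 1 hour and then with collagenase at 173 U/mL for 1.5 hours, and the released cells were plated on fibronectin before RNA was purified. The sources used here do not say which allele was knocked out, how many mice of which sex were used, or how long the cells were cultured. Below, WT and Prg4KO stand for these libraries.

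Macrophages are phagocytic cells of the innate immune system that live in nearly every tissue, including the synovial lining of the joint. Their survival depends on the receptor Csf1r and its ligands, and they clear debris with scavenger and lectin receptors, secrete the complement component C1q, and digest what they take up in lysosomes. They also give rise to osteoclasts, the cells that resorb bone and calcified cartilage, when the transcription factor PU.1 and the Csf1r pathway act together with osteoclast signals. Healthy cartilage itself has no resident macrophages in its matrix.

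Each genotype had 1 library, so no test of genotype was possible, and every interval below covers counting error alone. Expected counts, which are estimated reads per gene, summed to 21619093 for WT and 21392574 for Prg4KO. The deposited Prg4KO values stand out of register with the gene names, and every Prg4KO value below rests on a re-pairing by row order and effective length. All 10 members were paired, at probabilities of at least 0.99999, and their effective lengths differed between the libraries by at most 0.265%. Prg4 itself had 54559 counts in WT and 6.15 in Prg4KO. Chondrocyte markers were abundant, with a WT FPKM of 150 for Sox9, the chondrocyte transcription factor, and 14594 for Col2a1, the main cartilage collagen. Levels are given in FPKM, in which counts are divided by effective length and library size so that genes can be compared with each other.

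The 10 macrophage genes were present at low to moderate levels in both libraries, and most were slightly higher in Prg4KO. Together they took 3508 of the WT counts, or 162 per 1000000 (95% binomial interval 157 to 168), and 4317 of the Prg4KO counts, or 202 per 1000000 (196 to 208). The ratio of these sums per library total was 1.24 (1.19 to 1.30). The median count ratio of all 7365 genes whose larger FPKM was at least 5 was 1.12. That median weights each gene alike, while the ratio of sums weights genes by their counts, so the measures differ. On a like measure, the median log2 ratio of FPKM + 1 was 0.30 for the members and 0.15 for these genes. Since each library holds the RNA of all collected cells, fewer cells of a type and less RNA per cell cannot be told apart in any of these values.

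No member differed by a factor of 2. The limit used was a log2 ratio of FPKM + 1 of at least 1 in size, for genes whose larger FPKM was at least 5, a level that 8 of the 10 members reached. Of these 8, 0 passed the limit, against 0.462% of all genes on the higher side and 0.109% on the lower side. At a limit of 1.5-fold and with the values as deposited, Tyrobp alone passed on the higher side (6.31% of all genes) and no member on the lower side (1.52%). By direction, 9 of 10 members had a log2 ratio above 0, as did 68.9% of the 11192 genes whose larger FPKM was at least 1, and 8 of 10 lay above the all-gene median of 0.15, as did 48.8% of those genes. The median log2 ratio of the 10 members was 0.30.

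**Figure D1:**
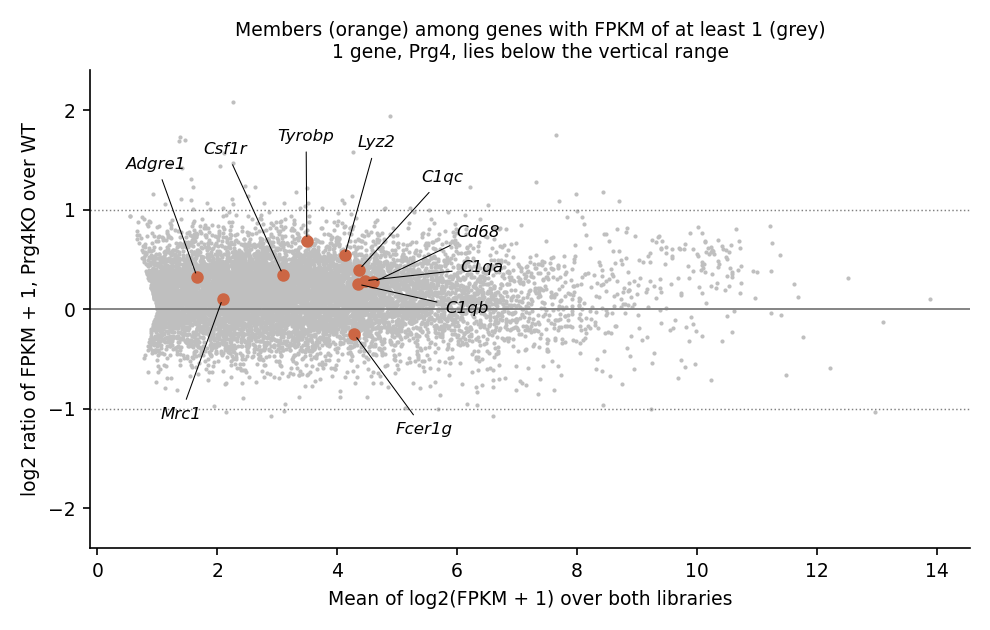
The vertical axis gives the log2 ratio of FPKM + 1, Prg4KO over WT, and the horizontal axis the mean of log2(FPKM + 1) over both libraries, for 11192 genes whose FPKM was at least 1 in either library (grey) and the 10 members (orange). All members lie between -0.25 and 0.69, inside the dotted lines of a 2-fold difference, and Fcer1g is the only one below 0. Prg4 lies below the plotted range.

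The count ratio separates the members further, because its interval shows what the depth can resolve. The 95% interval lay wholly above 1 for 8 members and wholly below 1 for Fcer1g, and it held 1 for Mrc1. Among genes at FPKM 1 or more in either library, the interval lay above 1 for 46.4% and below 1 for 15.9%. Set against the all-gene ratio of 1.12 in place of 1, the interval lay above it for 4 members (Csf1r, C1qc, Lyz2 and Tyrobp), as for 27.5% of genes, and below it for Fcer1g alone, as for 29.1% of genes.

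**Figure D2:**
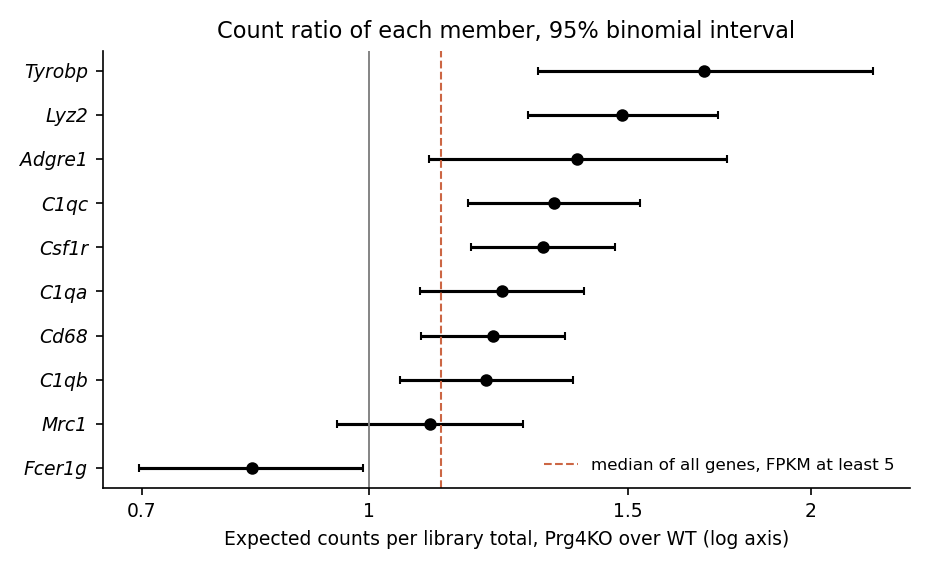
The horizontal axis gives, on a log scale, the expected count per library total in Prg4KO over that in WT for each member, with the 95% binomial interval as a bar. The solid line marks a ratio of 1 and the dashed line the all-gene median of 1.12. Ratios run from 0.832 for Fcer1g to 1.69 for Tyrobp, whose bars do not overlap.

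The order of the members by level was led by Cd68 in both libraries and closed by Csf1r, Mrc1 and Adgre1. In the WT library the order by FPKM was Cd68, Fcer1g, C1qa, C1qb, C1qc, Lyz2, Tyrobp, Csf1r, Mrc1 and Adgre1. No neighbouring pair among the first 5 differed beyond counting error, nor did Tyrobp and Csf1r, while the other 4 of the 9 neighbouring pairs did. In the Prg4KO library the order was Cd68, C1qa, C1qc, C1qb, Lyz2, Fcer1g, Tyrobp, Csf1r, Mrc1 and Adgre1, and 5 of the 9 neighbouring pairs differed. Fcer1g stood second in WT and sixth in Prg4KO. Cd68 had 11.5 times the FPKM of Adgre1 in WT (9.50 to 14.1) and 10.1 times in Prg4KO (8.52 to 11.9).

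**Figure D3:**
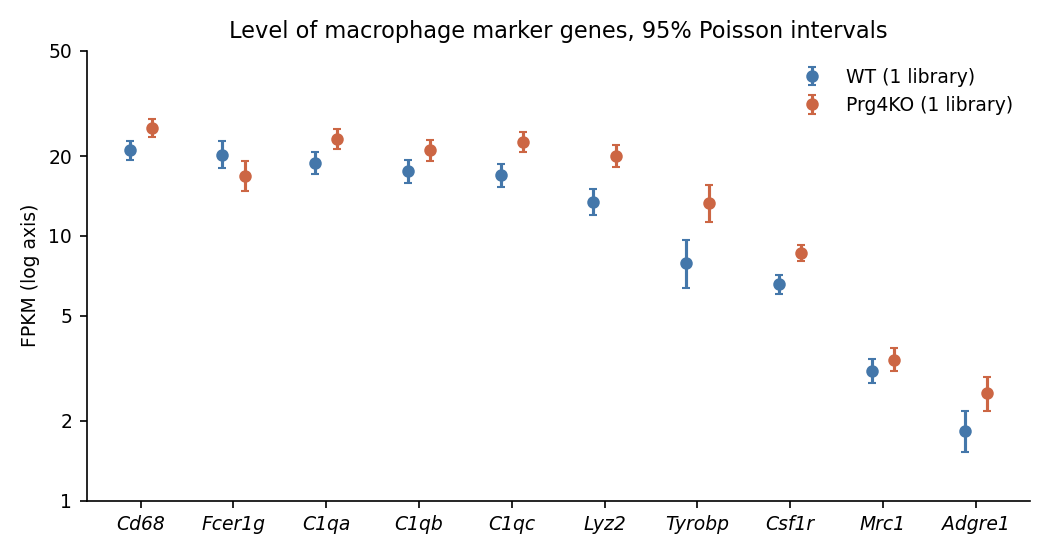
The vertical axis gives FPKM on a log scale for the 10 members, in the order of the WT library, with 95% Poisson intervals of the counts as bars. Values run from 1.83 to 21.1 in WT and from 2.54 to 25.6 in Prg4KO, and Fcer1g is the only member with the lower value in Prg4KO.

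Of the surface receptors, Csf1r is the receptor for the growth factors that macrophages need to survive. It lies on chromosome 18 from 61105572 to 61131139 (GRCm38, the build called mm10). Csf1r had 554 counts in WT (95% Poisson interval 509 to 602) and 720 in Prg4KO (668 to 775). Its FPKM was 6.57 in WT and 8.62 in Prg4KO, a count ratio of 1.31 (1.17 to 1.47), so the Prg4KO value was higher beyond counting error. At its end it overlaps Hmgxb3 on the opposite strand by 873 bases in GENCODE M21, and whether counting used the strand is not stated in the labels or headers. Of its ligands, Csf1, which encodes the growth factor M-CSF, was lower in Prg4KO, at an FPKM of 8.97 in WT and 6.82 in Prg4KO (count ratio 0.742, 0.666 to 0.826). Il34, which encodes the alternative ligand, had 1.83 and 2.34 (count ratio 1.26, 0.906 to 1.75), a difference not detectable at this depth.

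Mrc1 encodes the mannose receptor CD206, a lectin of tissue-resident macrophages that takes up glycoproteins. It lies on chromosome 2 from 14229414 to 14332023, and the microRNA gene Mir511 lies within it. Mrc1 had 360 counts in WT (324 to 399) and 392 in Prg4KO (354 to 433), giving FPKM values of 3.10 and 3.41. The count ratio was 1.10 (0.951 to 1.27), so the libraries did not differ beyond counting error. Its log2 ratio of 0.11 turned to values between -0.03 and -0.01 under 4 of 5 rescalings of the libraries.

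Adgre1 encodes F4/80, the adhesion receptor whose antibody is the standard stain for mouse macrophages. It lies on chromosome 17 from 57358581 to 57483529 and was the lowest of the members in both libraries. Adgre1 had 129 counts in WT (108 to 153) and 177 in Prg4KO (152 to 205), with an FPKM of 1.83 and 2.54. The Prg4KO count was the higher, at a ratio of 1.39 (1.10 to 1.75), with the all-gene ratio inside that interval. Over Csf1r, Mrc1 and Adgre1 the summed count ratio was 1.25 (1.15 to 1.36).

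C1qa, C1qb and C1qc encode the A, B and C chains of C1q, the recognition part of the complement C1 complex, which macrophages make in most tissues. The chains are assembled in equal numbers into each C1q molecule. The genes lie side by side on the same strand of chromosome 4, C1qb from 136880126 to 136886200, C1qc from 136889801 to 136892936 and C1qa from 136895916 to 136898844, together spanning 18719 bases. RefSeq promoter windows were at hand for 6 of the 10 members. The 250 bases before the start are printed for C1qb and C1qc, neighbours that were both higher in Prg4KO, and for Fcer1g, the member that was lower. This choice followed the values and leaves out Cd68, Mrc1 and Lyz2, whose matches are given below. The printed bases are given 5′ to 3′ on the gene's own strand (the minus strand in all 3, GRCm38.p6), and the capitals mark the PU box. This is the core sequence GAGGAA bound by PU.1, the master regulator of myeloid cells, and both strands were searched, so that a match on the antisense strand reads TTCCTC.
C1qb, chr4:136886201-136886450: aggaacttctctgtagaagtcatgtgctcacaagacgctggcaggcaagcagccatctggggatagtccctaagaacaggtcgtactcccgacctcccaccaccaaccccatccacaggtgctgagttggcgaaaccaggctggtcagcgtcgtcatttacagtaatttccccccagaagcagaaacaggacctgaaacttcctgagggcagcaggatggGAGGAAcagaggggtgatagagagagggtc
C1qc, chr4:136892915-136893164: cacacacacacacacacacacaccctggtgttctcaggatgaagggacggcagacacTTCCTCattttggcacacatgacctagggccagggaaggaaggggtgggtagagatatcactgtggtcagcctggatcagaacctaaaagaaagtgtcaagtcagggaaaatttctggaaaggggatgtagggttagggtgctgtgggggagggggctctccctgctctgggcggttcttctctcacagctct
Fcer1g, chr1:171234350-171234599: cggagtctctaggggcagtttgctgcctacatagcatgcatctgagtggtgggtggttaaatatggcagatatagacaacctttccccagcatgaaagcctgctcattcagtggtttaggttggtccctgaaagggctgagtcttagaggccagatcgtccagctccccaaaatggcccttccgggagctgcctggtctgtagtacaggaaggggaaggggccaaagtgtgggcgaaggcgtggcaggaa

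The PU box letters start 30 bases before the start of C1qb on the sense strand and, on the antisense strand, 193 bases before that of C1qc. Mrc1, whose count ratio interval held 1, had 3 matches, at 180, 167 and 35 bases before the start. Cd68, higher in Prg4KO, had 1 at 225. The windows of Lyz2, higher in Prg4KO, and of Fcer1g, lower, had none. In all, 4 of the 6 member windows held the letters on either strand, as did 23.3% of 32851 RefSeq promoter windows of the same length. A match describes the letters only, and a link between the letters and the ratios was not tested. The RefSeq start of C1qc lies slightly inside the gene span given above. Windows for Csf1r, Adgre1, C1qa and Tyrobp were not used here.

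The C1q chains had nearly equal levels within each library and were all higher in Prg4KO. C1qa had 434 counts in WT (394 to 477) and 529 in Prg4KO (485 to 576), with an FPKM of 18.9 and 23.2. C1qb had 396 (358 to 437) and 471 (429 to 516), with an FPKM of 17.6 and 21.1. C1qc had 382 (345 to 422) and 505 (462 to 551), with an FPKM of 16.9 and 22.6. All 3 were higher in Prg4KO beyond counting error, with count ratios of 1.23 (1.08 to 1.40) for C1qa, 1.20 (1.05 to 1.38) for C1qb and 1.34 (1.17 to 1.53) for C1qc, and these intervals overlap. Those of C1qa and C1qb held the all-gene ratio of 1.12, and that of C1qc lay above it.

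Within a library the chains could not be told apart by level. In the WT library C1qa had 1.08 times the FPKM of C1qb (0.936 to 1.24) and 1.12 times that of C1qc (0.970 to 1.28). In the Prg4KO library the corresponding values were 1.10 (0.971 to 1.25) and 1.03 (0.909 to 1.16). The other parts of the C1 complex, the proteases C1r and C1s, are made by connective tissue cells as well. Their genes C1ra, with an FPKM of 15.4 in WT and 14.5 in Prg4KO, and C1s1, with 6.07 and 6.34, had count ratios whose intervals held 1 (0.948, 0.863 to 1.04, and 1.05, 0.908 to 1.21). Serping1, which encodes the inhibitor of these proteases, had an FPKM of 20.8 and 17.8 (count ratio 0.854, 0.771 to 0.945).

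Cd68 encodes a heavily glycosylated membrane protein of endosomes and lysosomes, abundant in macrophages and osteoclasts. It lies on chromosome 11 from 69664213 to 69666170. Cd68 had 568 counts in WT (522 to 617) and 683 in Prg4KO (633 to 736), with an FPKM of 21.1 and 25.6. The Prg4KO value was the higher, at a count ratio of 1.22 (1.09 to 1.36), with the all-gene ratio inside that interval.

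Lyz2 encodes lysozyme M, the enzyme with which macrophages and neutrophils cut bacterial cell walls. It lies on chromosome 10 from 117277541 to 117282272, and its near-identical copy Lyz1, the lysozyme of intestinal Paneth cells, lies 5522 bases away. Lyz2 was the 1 member whose counts were not whole, as estimated counts need not be where reads match more than 1 gene. The first 90 coding bases of each (GENCODE M21 transcripts, 5′ to 3′) are shown because they let a reader see how alike the copies are, with capitals for the bases that differ.
Lyz2: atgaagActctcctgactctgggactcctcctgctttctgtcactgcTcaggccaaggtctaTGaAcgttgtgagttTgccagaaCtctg
Lyz1: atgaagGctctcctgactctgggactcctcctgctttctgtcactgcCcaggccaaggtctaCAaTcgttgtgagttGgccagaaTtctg

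Over the 447 coding bases, 22 differ, an identity of 95.1%. Of all windows of 50 bases along the Lyz2 transcript, 15.4% occur without a mismatch in the Lyz1 transcript, and of windows of 100 bases 1.97%. Lyz2 had 301.8 counts in WT (269 to 338) and 444.33 in Prg4KO (404 to 488), with an FPKM of 13.5 and 20. Lyz1 had 28.2 and 52.67 counts, so that the pair summed to whole numbers, 330 in WT and 497 in Prg4KO. The count ratio was 1.49 for Lyz2 (1.28 to 1.73) and 1.52 (1.32 to 1.75) for the sum, which does not depend on how reads were split between the copies. Lyz2 was thus higher in Prg4KO beyond counting error with or without its copy.

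Tyrobp and Fcer1g encode small membrane adaptors, DAP12 and the Fc receptor gamma chain. Each carries an activation motif that recruits the kinase Syk once an associated receptor is engaged. Tyrobp serves receptors such as Trem2, and Fcer1g serves the activating Fc receptors, including the IgE receptor of mast cells and basophils. Both adaptors are also used in osteoclast formation. They gave the highest and the lowest ratio among the members.

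Tyrobp lies on chromosome 7 from 30413782 to 30417582. It had 95 counts in WT (76.9 to 116) and 159 in Prg4KO (135 to 186), with an FPKM of 7.87 and 13.3. Its count ratio of 1.69 (1.30 to 2.20) was the highest of the 10, from the lowest WT count.

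Fcer1g lies on chromosome 1 from 171229572 to 171234349. It had 288 counts in WT (256 to 323) and 237 in Prg4KO (208 to 269), with an FPKM of 20.3 and 16.8. Its count ratio was 0.832 (0.697 to 0.991), so it was lower in Prg4KO, narrowly beyond counting error. Fcer1g had 2.58 times the FPKM of Tyrobp in WT (2.04 to 3.28) and 1.27 times in Prg4KO (1.03 to 1.56). It stood level with C1qa in WT, at 1.07 times its FPKM (0.921 to 1.25), and below it in Prg4KO, at 0.725 times (0.619 to 0.846). Without Fcer1g, the other 9 members had a summed count ratio of 1.28 (1.22 to 1.34).

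Genes listed as partners of these adaptors were mostly at low levels. The list is broad, since it also holds the kinase Syk, and use of the adaptors was not checked for each receptor in it. Of 13 listed genes, 11 could be paired and 5 reached an FPKM of 1 in either library, among them Pirb at 0.97 and 1.03. Fcgr3, which encodes an activating Fc receptor that needs Fcer1g, had an FPKM of 5.60 in WT and 6.16 in Prg4KO, at a count ratio of 1.10 (0.884 to 1.37). Trem2, the lipid-sensing partner of Tyrobp, had 2.14 and 1.92, at a count ratio of 0.889 (0.579 to 1.36). Neither differed beyond counting error. Cd300lb, a further receptor that signals through Tyrobp, had 1.46 and 2.54 (count ratio 1.69, 1.29 to 2.21), and Clec4e, the Fcer1g-coupled lectin Mincle, had 0.62 and 1.28 (2.05, 1.34 to 3.19). Syk, the kinase itself, had 0.72 and 0.88 (1.22, 0.902 to 1.66).

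Further macrophage genes mostly had log2 ratios above 0, as did most of all genes. List values here and below use the library totals as deposited. Their summed ratios weight genes by counts, unlike the all-gene median count ratio of 1.12, which weights each gene alike. Of 27 such genes, 24 could be paired, and their summed count ratio was 1.30 (1.23 to 1.38). Among the 15 that reached an FPKM of 1, 13 had a log2 ratio above 0 and 2 below, where 68.9% of all genes lay above 0. The interval of the count ratio lay above 1 for 7 of the 15 and below 1 for 0, against 46.4% and 15.9% of all genes. Only 6 of them reached an FPKM of 5, and 0 of these passed the 2-fold limit, against 0.462% of all genes on the higher and 0.109% on the lower side. Ctss, a lysosomal protease of antigen-presenting cells, had an FPKM of 4.31 in WT and 8.21 in Prg4KO (count ratio 1.91, 1.53 to 2.39). Ms4a7, a membrane protein of resident macrophages, had 2.25 and 4.05 (1.82, 1.33 to 2.51). At the other end, Trem2 and Ms4a6c, the latter at 4.56 and 4.52 (0.999, 0.807 to 1.24), did not differ beyond counting error.

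Genes shared by all leukocytes had a summed count ratio of 1.23 (1.17 to 1.29) over 10 of 10 paired genes. Only 3, Lcp1, Laptm5 and Arhgdib, reached an FPKM of 5. They held most of the counts, and Laptm5 also stands in the list of further macrophage genes. Of these 3, 0 passed the 2-fold limit (0.462% of all genes higher, 0.109% lower). Cd52, a surface glycoprotein of leukocytes too low to be held to that limit, had 10 and 28 counts (count ratio 2.83, 1.33 to 6.53). Ptprc, which encodes the leukocyte antigen CD45, was also low, with 34 and 60 counts (1.78, 1.15 to 2.80). Lcp1, the actin-bundling protein L-plastin, had an FPKM of 11.6 in WT and 16.8 in Prg4KO (1.46, 1.34 to 1.59). Arhgdib had 24.7 and 22.9 (0.963, 0.857 to 1.08), and Coro1a, an actin-binding coronin, had 1.96 and 1.87 (0.954, 0.673 to 1.35), with intervals that held 1.

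Transcription factors of myeloid cells were found on both sides of 0, and several of them are used by cartilage and connective tissue cells too. Of 10 paired genes, 8 reached an FPKM of 1, 4 with a log2 ratio above 0 and 4 below, where 68.9% of all genes lay above 0. An FPKM of 5 was reached by 6, and 0 of these passed the 2-fold limit (0.462% and 0.109% of all genes). Irf8 had an FPKM of 1.23 in WT and 1.65 in Prg4KO (count ratio 1.34, 0.987 to 1.83). Runx1 had 6.26 and 5.41 (0.867, 0.790 to 0.952). Spi1, which encodes PU.1 and was singled out after its values were seen because of the promoter letters above, had 345 and 319 counts and FPKM values of 10.9 and 10.2. Its count ratio was 0.934 (0.800 to 1.09).

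**Figure D4:**
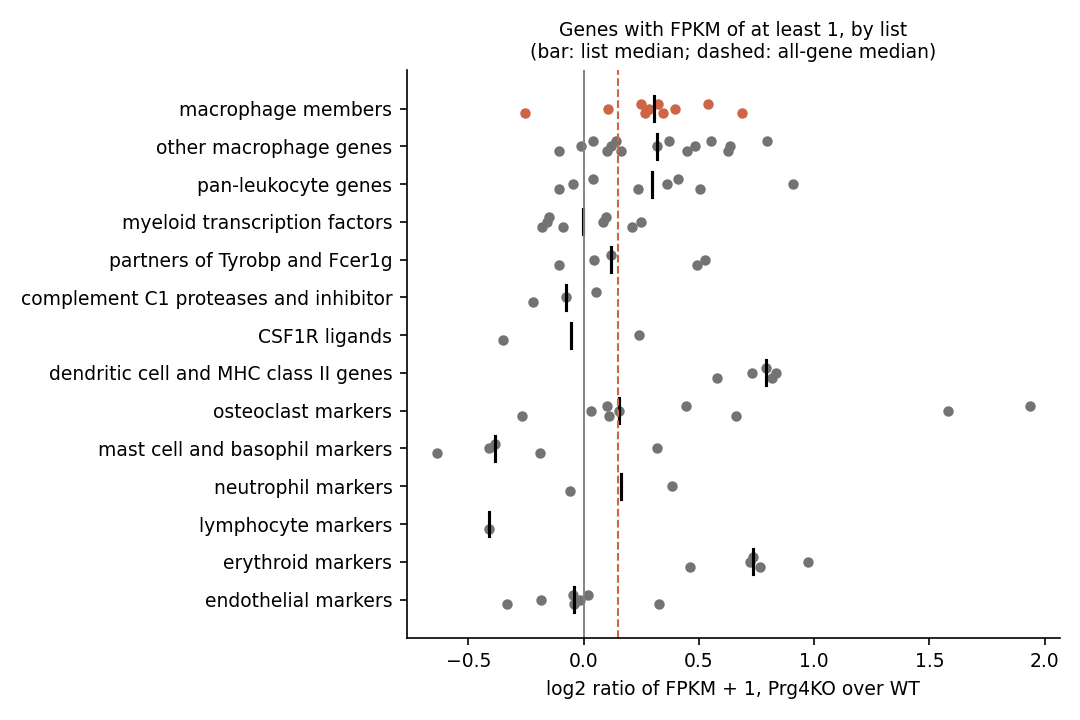
Each point is the log2 ratio of FPKM + 1, Prg4KO over WT, of 1 gene at FPKM 1 or more in either library, by gene list, with the list median as a black bar, a solid line at 0 and the all-gene median of 0.15 as a dashed line. The member median of 0.30 lies near those of the other macrophage genes (0.32) and the pan-leukocyte genes (0.30), while the MHC class II list (0.79) and the erythroid list (0.74) lie further to the right and the mast cell list (-0.38) to the left.

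Genes of other blood-derived cells differed between the libraries as well, and their part in the member values was not tested. In the dendritic cell and MHC class II list, 9 of 10 genes could be paired, and the summed count ratio was 1.83 (1.67 to 2.02). H2-Ab1, a chain of the class II antigen-presenting molecule, had an FPKM of 12.7 in WT and 19.4 in Prg4KO, and Cd74, the chaperone of that molecule, had 4.94 and 9.47. Flt3, a dendritic cell receptor, was not found by symbol among the named genes with WT values. Xcr1 and Siglech, also dendritic cell markers, had 5.4 and 2 counts in WT. Zbtb46, which endothelial cells also express, had 2.50 and 5.24.

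Erythroid genes were abundant in both libraries. Their FPKM summed to 1648 in WT and 2675 in Prg4KO over 6 of 6 genes, with a summed count ratio of 1.63 (1.60 to 1.66). The haemoglobin genes Hba-a1, at 725 and 1233, and Hbb-bs, at 513 and 856, stood far above every macrophage gene. Hba-a1 and Hba-a2 are near-identical copies, as are Hbb-bs and Hbb-bt, and reads may have been split between them.

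Osteoclasts share the myeloid origin of macrophages and also express Cd68, Tyrobp and Fcer1g. Of 15 osteoclast genes, 14 could be paired and 6 reached an FPKM of 5. Of these 6, 2 passed the 2-fold limit on the higher side, as did 0.462% of all genes, and 0 on the lower side. These 2 were Mmp9, a gelatinase, at an FPKM of 14.1 in WT and 56.9 in Prg4KO (count ratio 4.03, 3.76 to 4.33), and Acp5, the tartrate-resistant acid phosphatase, at 10.2 and 32.3 (3.15, 2.76 to 3.60). No macrophage member had a count ratio above 1.69. Ctsk, the collagen-degrading cathepsin that fibroblasts and chondrocytes also express, had 140 and 143, and Nfatc1, a transcription factor of wider use, had 48.6 and 40.2. Atp6v0d2, a proton pump subunit, had 27 and 74 counts (2.77, 1.76 to 4.48), and Tcirg1, another subunit of that pump, had 223 and 324 (1.47, 1.23 to 1.75). Calcr, the calcitonin receptor of mature osteoclasts, had 4 and 2 counts, and Oscar, an Fcer1g-coupled receptor, 8 and 12. The part of osteoclasts in the values of the genes they share with macrophages was not tested.

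Mast cells also express Fcer1g, as part of their IgE receptor, so their markers are given here. Of 5 paired genes, 1 had a log2 ratio above 0 and 4 below, where 68.9% of all genes at FPKM 1 or more lay above 0. The interval of the count ratio lay above 1 for 1 and below 1 for 2, against 46.4% and 15.9% of those genes. Tpsb2, a tryptase, had 85 counts in WT and 46 in Prg4KO (count ratio 0.547, 0.373 to 0.792). Cpa3, a carboxypeptidase, had 33 and 17 (0.521, 0.272 to 0.962). Mcpt4 and Cma1, both chymases, had 68 and 47 counts (0.698, 0.471 to 1.03) and 47 and 38 (0.817, 0.518 to 1.28), where the intervals held 1. Kit, the stem cell factor receptor, which other cells carry too, went the other way with 140 and 200 (1.44, 1.16 to 1.80). The list names 8 genes, and the paired ones had an FPKM sum of 11.3 in WT and 8.26 in Prg4KO and a summed count ratio, Kit included, of 0.943 (0.812 to 1.09). Fcer1a and Ms4a2, the other chains of that receptor, and Mcpt8 of basophils were not found by symbol among the named genes with WT values. Whether these cells contributed to the Fcer1g values was not tested.

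Neutrophil and lymphocyte markers were scarce. Of 12 neutrophil genes, 6 could be paired, and their FPKM summed to 6.69 in WT and 7.76 in Prg4KO. Most of this was Cxcr2, a chemokine receptor gene, at 4.46 and 4.24. Lcn2, a granule gene that other cells express too, had 33 and 48 counts and an FPKM of 1.84 and 2.70 (count ratio 1.47, 0.924 to 2.36). The granule genes Ngp, with 1 and 5 counts, and Ltf, with 2 and 4, were barely detected. Lysozyme M is a neutrophil product as well, and the part of neutrophils in the Lyz2 values was not tested. Of 10 lymphocyte genes, 4 were paired with an FPKM sum of 1.61 in WT and 1.21 in Prg4KO, and Cd79a of B cells had 35 and 19 counts. Endothelial markers, present in both libraries, had a summed count ratio of 0.939 (0.905 to 0.975) over 7 of 7 genes, with Pecam1, the adhesion molecule CD31, at an FPKM of 26.6 and 25.7.

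Markers of cartilage and connective tissue cells differed between the libraries too. The summed count ratio was 1.11 (1.11 to 1.11) over the 9 chondrocyte markers, with most of the counts from Col2a1 (1.08, 1.08 to 1.08). Their median log2 ratio was 0.26. Of the 9, 8 had a log2 ratio above 0 and Acan lay below (0.827, 0.819 to 0.836), where 68.9% of all genes lay above 0. Matn3 alone passed the 2-fold limit (2.25, 2.20 to 2.30), as did 0.462% of all genes on the higher side. The 7 fibroblast markers had a summed ratio of 0.566 (0.565 to 0.568), and of 0.925 (0.919 to 0.932) without the collagen genes Col1a1 and Col1a2. The fibroblast list had a median log2 ratio of -0.18, with Lum, a collagen-binding proteoglycan gene, on the higher side (1.33, 1.29 to 1.37). The 9 superficial zone markers, which include Prg4 itself, had a summed ratio of 0.316 (0.313 to 0.320), and of 0.665 (0.655 to 0.674) without Prg4. Among them Erg, a transcription factor gene, was higher in Prg4KO (1.28, 1.16 to 1.42). Their part in the member values was not tested.

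The excess of the members over all genes depended on the processing. As deposited, the member median lay 0.15 above the all-gene median on the log2 scale. It lay 0.12 above it at a pseudocount of 5, 0.18 at a pseudocount of 0.1, and 0.09 with a trend in transcript length removed. With that trend removed, Mrc1 lay above the all-gene median and C1qb did not. The 5 rescalings multiply all Prg4KO values by a constant, and the one to a common sum also multiplies all WT values by another. They therefore move all genes alike apart from the pseudocount. They shifted the all-gene median of 0.15 by between -0.17 and -0.11 and put the member median between 0.15 and 0.20. Log2 ratios also went with transcript properties, with Spearman correlations across 6697 genes of -0.31 with length and -0.35 with GC content. The members ran from 586 to 5322 bases and from 43.4% to 59.5% GC. With a trend in length and GC removed, the member median lay 0.15 above the all-gene median. Fcer1g then had -0.45, Tyrobp 0.52, Csf1r 0.48 and Lyz2 0.33.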

How the data were processed

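Per the file headers, the authors deposited expected counts and FPKM for 1 WT and 1 Prg4KO library. RSEM, HISAT2, Bowtie2 and the build mm10 are named in the submitters' processing notes, without roles or versions. FPKM, as deposited, is scaled by effective length and library size. The sources used here do not give read length or strand use.

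The table held 15973 pairs of Prg4KO values for 15719 named genes. Across genes, log2 FPKM correlated at r = 0.96 in the first 20 rows and 0.084 later. Prg4KO values were re-paired by a pair hidden Markov model with 3 states, from row order and count divided by FPKM. Only pairs with a probability of at least 0.95 entered (14857 genes, 94.5%, including 6838 of 6840 with WT FPKM of at least 5), and r was then 0.981.

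Ratios used a pseudocount of 1. Intervals are 95% exact Poisson or Clopper-Pearson binomial. Sums over a list use every paired member. Sequences and coordinates are from RefSeq (GRCm38.p6) and GENCODE M21. TMM factors came from edgeR 4.0.16 on rounded counts, other steps from Python 3.11.15 and scipy 1.17.1. All members were named, and of other lists the 2 highest and 2 lowest, the most abundant, or direct partners. Calcr, Tcirg1, Atp6v0d2, Cpa3, Ptprc, Xcr1, Siglech, Ngp, Ltf and the lists without their most abundant genes were added after their values were seen. Members and lists were chosen with earlier results of these data known.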

Additional observations from a re-analysis of the deposited data

How the results depend on the processing

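No paired analysis was possible because each genotype had 1 library. Leaving out a library would leave no comparison. The count of members past the 2-fold limit was 0 with no filter on low values, with a filter at FPKM 1, with pseudocounts of 0.1 and 5, under 5 rescalings and with either trend removed. It was 1, Tyrobp, at a 1.5-fold limit with the values as deposited, where its log2 ratio was 0.69. Tyrobp also stayed above that limit at a pseudocount of 0.1 (0.75) and, narrowly, with a common sum (0.585). Under the other rescalings, a pseudocount of 5 and either trend removal it ran from 0.47 to 0.57, below 1.5-fold. The number of members with a log2 ratio above 0, an alternative count chosen after seeing the data, was 8 or 9 under these pseudocounts, rescalings and trend removals, and Fcer1g was below 0 in each. The median over the members ran from 0.15 to 0.34. Levels as TPM, on another scale, ran from 4.26 (Adgre1) to 49.0 (Cd68) in WT. Of 117 single-member log2 ratios listed under other settings, 1 left the counting interval of the main value. This was Cd68, at 0.09 with libraries scaled without the 20 most abundant genes. The 117 include a pair probability of 0.99, which every member already met, so that setting could not move a value. A shift of rows taken from neighbouring pairs, also among the 117, was available for 7 members and gave the same row for 7. Those neighbours were paired by the same model in row order, so this is no separate check of the re-pairing. Counts of 95 to 720 per member set the precision, and the spread between cultures is unknown.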
